A study of Mus musculus with 13 samples.

Results

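The genes of killer cell lectin-like receptors and C-type lectin receptors were examined for the repressive histone mark H3K27me3 in mouse embryonic stem cells (ESCs). Members were taken by symbol from the deposited promoter count table (Klra to Klrk with a number, and Clec with a number and a letter). Of 77489 promoter rows of 55232 genes, 105 rows of 57 genes belonged to the set. On chromosome 6 lie 88 rows of 49 genes, and on chromosomes 7, 8, 9, 11, 12 and 16 lie 17 rows of 8 genes. The chromosome 6 members formed 4 clusters by position and were not confined to the natural killer gene complex. Of the set, 35 genes lay in that complex, taken here as their cluster of 2.59 Mb at chr6:128656032-131249362 in mm10. The complex also holds genes that the symbol rule leaves out, such as Klrb1a, Klrb1b, Klrb1c, Klrb1f, Cd69 and Olr1. A cluster of 10 genes, Klrg1 and the Dectin-2 group, lay on the centromere side of it, Clec4f stood alone, and Klrg2, Clec2l and Clec5a lay together much farther away.

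Killer lectin receptors sit on natural killer cells and some T cells, where they read MHC class I and stress ligands on other cells. Inhibitory members recruit phosphatases, and activating members pair with adaptor proteins that recruit kinases. Most Clec receptors of this set belong to macrophages, dendritic cells and platelets, where they bind glycans or glycolipids of microbes or of damaged cells. ESCs belong to none of these lineages. H3K27me3 is laid down by Polycomb repressive complex 2, which in ESCs is known above all for marking CpG-rich promoters of developmental genes.

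The study used ChIP-seq of a male ESC line from a CAST by B6 cross with a recombination cassette at Rosa26 on chromosome 6. WT cells were set against double knockout (DKO) cells that lack SAFB and SAFB2, a pair of related RNA-binding proteins of the nucleus. Cells of both genotypes carry the Rosa26 cassette, had 3 days of doxycycline and were crosslinked with 0.6% formaldehyde. The sources used here do not say what the cassette expresses. H3K27me3 was measured in 5 WT and 4 DKO libraries, and total H3 in 2 WT and 2 DKO libraries. DKO replicate 1 for H3K27me3 is from clone 4 and the other DKO libraries are from clone 13. WT replicate 4 and DKO replicate 3 are labelled Old, WT replicate 5 and DKO replicate 4 are labelled New, and the other 5 H3K27me3 libraries carry neither word. The names of WT replicates 1, 4 and 5 share a stem, and whether WT replicates 2 and 3 are other clones is not given. No label says that replicates were separate cultures, so each p-value sets a difference against a spread between libraries that may be technical.

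Promoter rows held 798466 to 1427771 counts per H3K27me3 library, and the deposited regions held 525847 to 736566 counts per H3 library. A promoter row spans 2 kb before to 1 kb after a start site, and a read that overlapped several rows was not counted. The cell type was checked only in rows free of overlap, since the rows of Nanog, Zfp42 and Sall4 overlap others and their low counts check nothing. Among pluripotency genes, Pou5f1 had 4.37 CPM (read counts scaled to a common library size), Tdgf1 had 3.73 CPM and the free rows of Esrrb had 33.9 and 24.7 CPM. Among lineage regulators, Hoxd10 had 364 CPM, T had 305 CPM and Gata4 had 18.9 CPM, so the ranges overlapped. That overlap rests on Gata4 alone. Its free row is at chr14:63212607-63215607, and its rows at another start overlap each other. Of 10 tested rows of 6 lineage regulators 1 fell (Hoxd10), where 0.19% of all rows tested fell by edgeR. In all 9 libraries 30 member rows held 0 counts, and none of these 30 was free of overlap. Levels are therefore given for the 34 member rows, from 32 genes, that overlapped no other row, and 25 genes had no such row.

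The lectin receptor promoters on chromosome 6 carried less H3K27me3, at the median, than the promoters of that chromosome and more than the promoters of other chromosomes. Over rows free of overlap, the median level was 18.8 CPM for the 28 chromosome 6 member rows, against 28.1 CPM for all 2224 such rows of chromosome 6 and 12.2 CPM for the 33818 rows of other chromosomes. The members' median was below the chromosome's median in 9 of 9 libraries and above that of other chromosomes in 9 of 9. Of the 28 rows, 20 lay in the natural killer gene complex, at a median of 17.5 CPM, with library medians from 11.1 to 19.4 CPM. The chromosome 6 members outside the complex were not below the chromosome's median of 28.1 CPM. The 6 free rows of the Klrg1 and Dectin-2 cluster had a median of 29.2 CPM. The single free rows of the other clusters, at Clec4f and Clec2l, had 53.5 and 124 CPM. The 6 free rows of members on other chromosomes had a median of 22.8 CPM, with library medians from 18.9 to 28.8 CPM. In bulk chromatin, a lower level in every cell and fewer cells or alleles with the mark cannot be told apart.

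**Figure D1:**
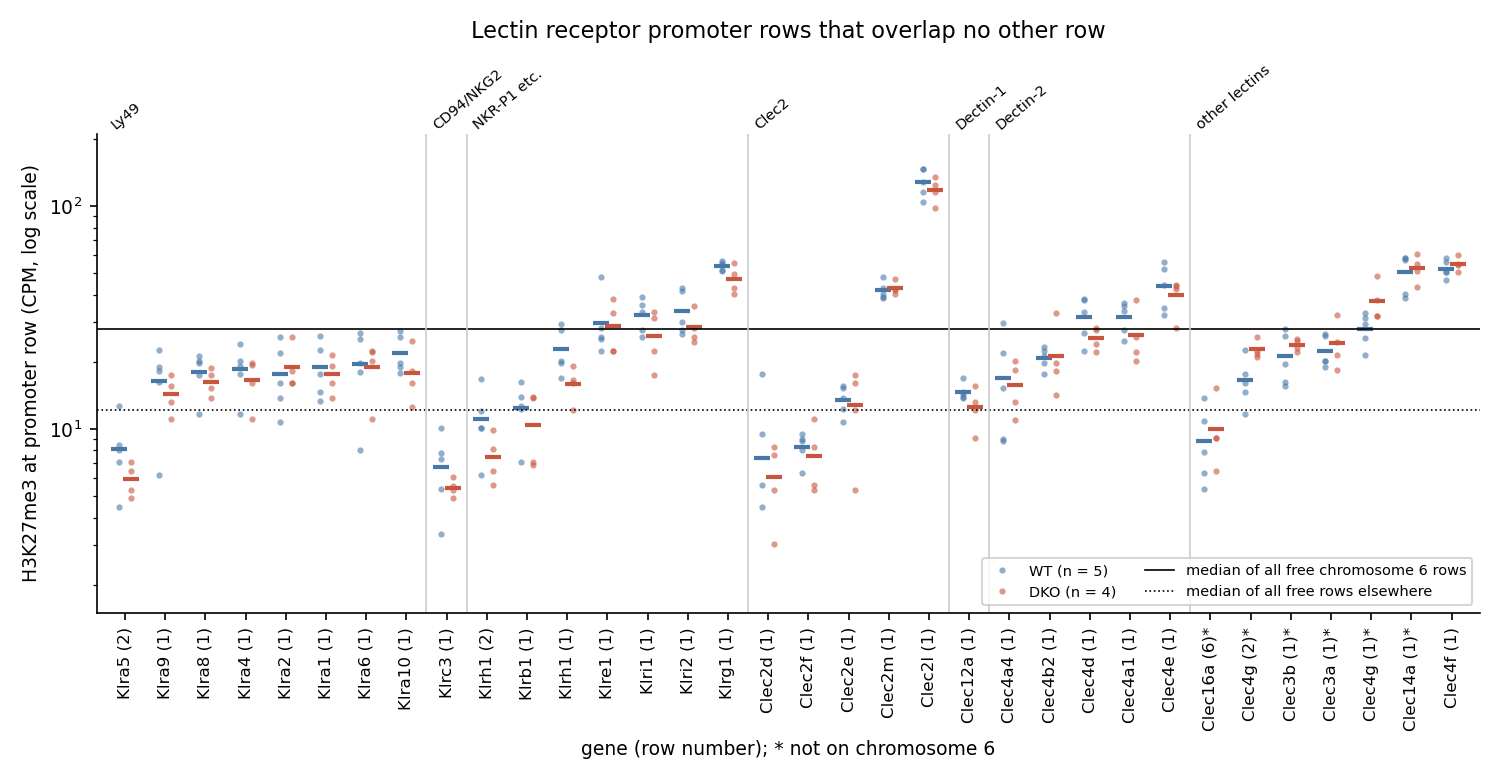
H3K27me3 (CPM, log scale) at the 34 lectin receptor promoter rows that overlap no other row, grouped by family. Points are libraries, short bars are group means, and lines mark the medians over all free rows of chromosome 6 (28.1 CPM) and of other chromosomes (12.2 CPM); all points of the Ly49 rows lie below the chromosome 6 line, while Clec2l stands at 124 CPM.

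The Ly49 receptors (Klra genes) recognise MHC class I on other cells and differ in number between mouse strains. Of their 18 rows, 8 were free of overlap, and these lay close together, from 7.16 CPM at Klra5 to 20.1 CPM at Klra10, with a median of 17.9 CPM. Their levels rest on few reads, from 4 to 39 counts per row and library. Klra10 had 17.8, 18.9, 25.8, 19.7 and 27.5 CPM in WT replicates 1 to 5, and 24.8, 18.2, 12.5 and 16.0 CPM in DKO replicates 1 to 4. The groups overlapped, with DKO replicate 1 above 3 of the 5 WT libraries. None of the 11 Ly49 genes had an H3K27me3 region over its promoter rows, and 34 of the 57 genes of the set had none. The share of all genes without such a region was not counted. Ly49 genes are copies of each other, the reads were counted against mm10, a B6 reference, and the sources used here do not say how reads that fit several copies were placed, so counts of single Ly49 genes are uncertain.

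The CD94/NKG2 group holds the receptors that read the non-classical MHC molecule Qa-1 (Klrd1 with Klrc1, Klrc2 or Klrc3) and NKG2D (Klrk1), which binds stress ligands. Its 13 rows overlapped so much that Klrc3 alone had a free row, at 6.18 CPM. Klrk1 and Klrc1 each lay under a short DKO-specific region, of 416 and 403 bp. Neither of these regions had enough counts to be tested.

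Of the NKR-P1 genes only Klrb1 is a member of the set, at 11.6 CPM. Among Klrb1 and the other natural killer receptors of this group, Klrg1 led the free rows. It is an inhibitory receptor that binds cadherins. Klrg1 had 50.8, 55.3, 51.5, 56.9 and 54.3 CPM in WT replicates 1 to 5, and 49.7, 55.7, 40.4 and 42.7 CPM in DKO replicates 1 to 4. DKO replicates 1, 3 and 4 were below all WT libraries and DKO replicate 2 was above 4 of them. Its log2 fold change (DKO over WT) was -0.21 ± 0.16 (SE), with an adjusted p of 0.715 by edgeR's quasi-likelihood test. Klri1 and Klri2, which pair with Klre1 into inhibitory or activating receptors, had 29.7 and 31.5 CPM over all libraries. Klri1 had 25.9, 39.0, 33.6, 27.7 and 36.0 CPM in WT and 17.5, 31.4, 22.3 and 33.6 CPM in DKO, and the groups overlapped.

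Clec2 genes encode mostly ligands of NKR-P1 receptors, and Clec2l held the highest level of any free member row. Clec2l had 147, 146, 115, 104 and 128 CPM in WT replicates 1 to 5 and 115, 135, 98.3 and 124 CPM in DKO replicates 1 to 4, more than 97.4% of the free rows of chromosome 6. DKO replicate 3 was the lowest of the 9, and the other DKO libraries lay within the WT range. Clec2m, inside the complex, had 39.2, 40.2, 48.2, 43.0 and 38.8 CPM in WT and 46.9, 42.5, 41.8 and 40.4 CPM in DKO, with full overlap. The other 3 free Clec2 rows lay between 6.83 CPM (Clec2d) and 13.2 CPM (Clec2e).

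The Dectin-2 group (Clec4a to Clec4e and Clec4n) holds myeloid receptors for fungal and mycobacterial sugars. Its 5 free rows ran from 16.4 CPM (Clec4a4) to 42.0 CPM. The highest was Clec4e (Mincle), which senses a mycobacterial cord glycolipid, with 34.8, 44, 32.5, 56.1 and 52.2 CPM in WT and 42.3, 28.3, 43.9 and 44.3 CPM in DKO. DKO replicate 2 was the lowest library, and the others overlapped. Clec4a1 had 36.5, 27.7, 24.7, 35.7 and 33.9 CPM in WT against 37.7, 20.2, 25.8 and 22.1 CPM in DKO, also with overlap. Of the Dectin-1 group only Clec12a, an inhibitory receptor that senses crystals from dead cells, had a free row, at 13.7 CPM.

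Of the remaining lectins, Clec4f (a Kupffer cell receptor, on chromosome 6) and Clec14a (an endothelial protein, on chromosome 12) led. Clec4f had 46.4, 50.3, 50.4, 56.1 and 58.6 CPM in WT and 50.6, 54.7, 54.4 and 60.3 CPM in DKO. Clec14a had 57.1, 40.2, 58.3, 38.6 and 58.6 CPM in WT and 60.7, 54.7, 43.2 and 51.1 CPM in DKO. The 2 genotypes overlapped in both. Clec3a and Clec3b (tetranectin), secreted lectins of the cartilage and plasma, had 23.2 and 22.3 CPM.

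The promoters of the set were poor in CpG, the letters C and G in a row, and the few exceptions are printed here beside typical members. RefSeq promoter sequences (GRCm38.p6, 250 bases before to 50 after the start) were matched for 46 of the 57 genes. The median was 3 CpG in 300 bases, against 7 over all 32851 RefSeq promoters and 6 over the 1865 of chromosome 6. Each member gene entered with a single promoter, the nearest to its highest row. The background held every listed promoter, also where a gene had several, so the units differ. Of the members, 3 (6.52%) had 10 or more CpG, against 43.5% of all promoters. The 11 Ly49 promoters had 0 to 3 CpG. CG reads the same on both strands, overlaps no other motif counted, and is in capitals, each run being the 250 bases upstream of the start, 5′ to 3′ on the gene's strand.
Clec2l: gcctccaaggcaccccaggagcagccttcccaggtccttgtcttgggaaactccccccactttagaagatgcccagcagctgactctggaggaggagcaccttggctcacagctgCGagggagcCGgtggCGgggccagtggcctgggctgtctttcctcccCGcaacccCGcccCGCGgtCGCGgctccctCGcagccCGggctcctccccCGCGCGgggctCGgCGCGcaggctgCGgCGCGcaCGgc
Klrg2: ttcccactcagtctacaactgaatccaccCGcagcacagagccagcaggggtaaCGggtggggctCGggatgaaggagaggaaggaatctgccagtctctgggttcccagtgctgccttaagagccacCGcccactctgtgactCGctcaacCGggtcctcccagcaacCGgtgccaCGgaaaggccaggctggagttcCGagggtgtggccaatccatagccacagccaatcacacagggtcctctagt
Clec16a: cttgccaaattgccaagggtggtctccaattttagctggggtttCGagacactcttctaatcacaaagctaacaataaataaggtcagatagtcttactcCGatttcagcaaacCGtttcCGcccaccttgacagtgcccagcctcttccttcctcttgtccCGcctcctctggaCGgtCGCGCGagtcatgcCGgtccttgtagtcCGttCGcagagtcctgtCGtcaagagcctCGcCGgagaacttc
Klrc1: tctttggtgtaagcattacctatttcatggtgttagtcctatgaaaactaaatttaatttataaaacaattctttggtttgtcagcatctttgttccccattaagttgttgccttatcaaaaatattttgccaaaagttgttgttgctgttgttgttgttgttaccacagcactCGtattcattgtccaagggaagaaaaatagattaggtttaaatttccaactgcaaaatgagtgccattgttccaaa
Klra4: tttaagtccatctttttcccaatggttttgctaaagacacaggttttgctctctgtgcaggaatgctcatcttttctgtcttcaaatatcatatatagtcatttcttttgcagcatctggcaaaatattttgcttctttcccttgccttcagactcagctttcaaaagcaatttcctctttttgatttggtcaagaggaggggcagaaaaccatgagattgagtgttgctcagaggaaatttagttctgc
Klra8: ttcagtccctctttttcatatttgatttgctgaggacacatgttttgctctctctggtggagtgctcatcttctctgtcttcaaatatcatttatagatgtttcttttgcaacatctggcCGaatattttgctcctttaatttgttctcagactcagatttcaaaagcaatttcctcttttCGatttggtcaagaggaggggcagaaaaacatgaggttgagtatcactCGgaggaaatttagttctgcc
These lie at chr6:38662819-38663068 (plus strand) for Clec2l, chr6:38637240-38637489 (minus strand) for Klrg2, chr16:10545089-10545338 (plus strand) for Clec16a, chr6:129678974-129679223 (minus strand) for Klrc1, chr6:130067272-130067521 (minus strand) for Klra4 and chr6:130129899-130130148 (minus strand) for Klra8. Over 300 bases Clec2l held 29 CpG, Klrg2 12, Clec16a 25, Klrc1 1, Klra4 0 and Klra8 3. Klrg2 and Clec2l held the 2 regions of highest CPM in the set (described with the regions), while no region overlapped a row of Clec16a, a broadly expressed gene of the autophagy pathway. Klra4 and Klra8 were the most alike pair of Ly49 promoters, 86.0% identical over the alignment, against a median of 53.0% over 55 pairs. CpG content did not order all levels: Clec4f held 0 CpG and a level of 53.5 CPM.

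H3K27me3 regions were counted over the members next. The deposited regions are a union over both genotypes, and the authors' lists call each region shared, WT-specific or DKO-specific. Of 57909 regions, 31 overlapped a member promoter row by at least 1 base, 28 on chromosome 6 and 3 elsewhere, at 23 genes. The share of all genes with such an overlap was not counted. By the authors' lists, 13 of the 31 regions were shared, 11 WT-specific and 7 DKO-specific. Shared regions made up 41.9% of the member regions, against 48.7% of all regions and 44.5% of those on chromosome 6. WT-specific regions made up 35.5%, against 18.8% and 32.0%, and DKO-specific regions 22.6%, against 32.5% and 23.5%. Of the 31, 22 were under 1 kb and 4 were over 5 kb, at Klrg2, Clec4f, Clec11a and Clec2l.

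The Klrg2 region, chr6:38633445-38642604, was the longest, at 9160 bp, longer than 98.9% of all regions. Klrg2, a receptor related to Klrg1, had 191, 174, 155, 171 and 171 CPM there in WT replicates 1 to 5 and 162, 142, 154 and 161 CPM in DKO replicates 1 to 4. DKO replicates 2 and 3 were below all WT libraries and the other 2 lay within the WT range. Its log2 fold change was -0.16 ± 0.08 (SE), adjusted p = 0.265 by edgeR. The promoter rows missed this signal: the overlapping Klrg2 rows held 0 to 2 counts per library, while the region held 310 to 533. Total H3 in the region was 122 and 113 CPM in WT and 87.6 and 107 CPM in DKO, so H3K27me3 CPM stood at 1.53 times H3 CPM. Both scales are CPM of the region counts, so such a ratio is relative to all regions and not an occupancy.

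The Clec2l region (5792 bp, chr6:38661748-38667539) covered the CpG-rich bases printed above and had a ratio to H3 of 1.03. Clec2l had 106, 105, 89.5, 90.8 and 93.9 CPM there in WT and 94.8, 90.1, 76.7 and 93.8 CPM in DKO, with DKO replicate 3 the lowest. The Clec4f region (7523 bp, chr6:83654177-83661699) was as broad but had a ratio of 0.713, with 54.2, 70.0, 60.5, 70.0 and 61.4 CPM in WT and 62.3, 62.0, 54.9 and 66.4 CPM in DKO. The Clec4f groups overlapped fully. The 12 regions at members of the natural killer gene complex summed to 6.37 kb, with a ratio of 0.672, against 0.942 for all 28 chromosome 6 member regions. Those 28 include the 12 and the long Klrg2, Clec2l and Clec4f regions. Low ratios were not particular to the complex. The shared regions at Klrg1 and Clec4e, outside it, had 0.726 and 0.568. Single regions at Klrg1 and the Dectin-2 group ran from 0.447 (Clec4a1) to 1.2 (Clec4a2), many on few H3 counts.

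Regions were sparse across the whole natural killer gene complex and not at its receptors alone. The complex held 106 regions, 40.9 per Mb, which covered 2.77% of its bases. It holds many gene copies, and how reads that fit several copies were placed is not given. The part of read placement in this coverage was not tested. Chromosome 6 as a whole had 164 regions per Mb and 16.1% coverage, and the other chromosomes had 14 per Mb and 2.24%. The chromosome was laid out in 56 windows of the complex's length, and 5 of the other windows had lower coverage, with a median of 15.4%. Of the 14 windows on the telomere side of Rosa26, the 1 next to the complex was lower, at 1.96%, and the window on its other side had 40.2%. The Dectin-2 cluster with Klrg1, 9.2 Mb from Rosa26, had 16.7% coverage, close to the chromosome's value, and the Klrg2 and Clec2l cluster, 72.5 Mb away, had 21.4%.

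**Figure D2:**
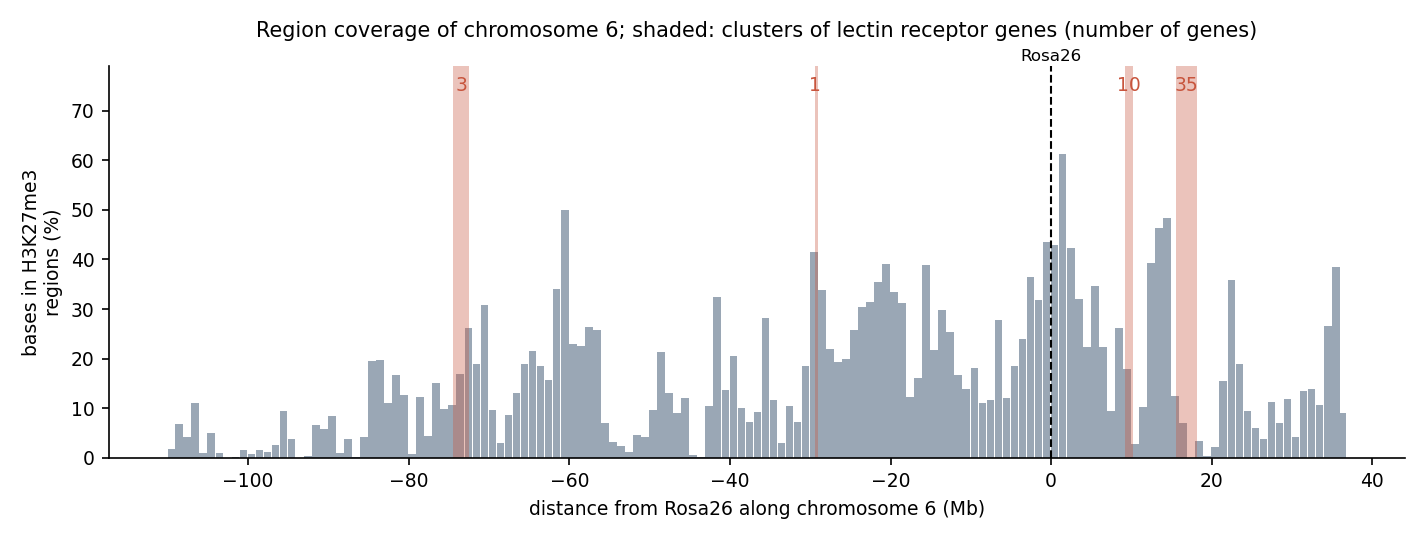
Share of bases in H3K27me3 regions (%) in bins of about 1 Mb along chromosome 6, by distance from Rosa26 (Mb, dashed line). Shaded spans are the 4 clusters of lectin receptor genes with their number of genes; coverage drops at the cluster of 35 genes, which as a whole had 2.77% coverage.

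The main comparison asked whether loss of SAFB and SAFB2 changed H3K27me3 at these promoters. No tested lectin receptor promoter row passed the test in either direction, which does not show that none changed. Of the 105 rows, 34 rows of 32 genes had enough counts for the test, and 0 rose and 0 fell at an adjusted p under 0.05 by edgeR's quasi-likelihood test over all 32647 rows tested, where 0.628% were called (0.438% rose and 0.19% fell). Of the members, 4 rows (11.8%) had an unadjusted p under 0.05, against 10.2% of all rows tested. DESeq2 gave an adjusted p to 13 of the member rows and called 0.

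On chromosome 6, 22 of 27 tested member rows had a negative log2 fold change, with a median of -0.15. With no filter 37 of 63 were negative, with a median of -0.11, and with DESeq2 39 of 63, with a median of -0.12. Over all 2587 tested rows of chromosome 6, 65.8% were negative and the median was -0.09. In the libraries with neither Old nor New in their labels, the members' median was -0.01 with 13 of 26 negative, and in the Old and New libraries it was -0.32 with 26 of 30 negative. The largest negative values were those of Klrh1, a receptor of natural killer cells with its own row pair in the complex. Klrh1 row 2 had 6.24, 10.1, 10.1, 16.8 and 12 CPM in WT and 6.44, 8.10, 5.58 and 9.92 CPM in DKO, a log2 fold change of -0.60 ± 0.32 (SE) with an adjusted p of 0.534 by edgeR. Klrh1 row 1 had 16.9, 27.7, 20.2, 19.7 and 29.6 CPM in WT and 16.6, 12.1, 16.0 and 19.1 CPM in DKO, a log2 fold change of -0.50 ± 0.22 (SE) with an adjusted p of 0.403. In row 1, 3 of 4 DKO libraries were below all WT libraries, and in row 2 only DKO replicate 3 was. Klra10 followed at -0.33 ± 0.22.

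The 7 tested member rows on other chromosomes, of 6 genes, all had a positive log2 fold change, with a median of 0.23, where 50.7% of the rows of other chromosomes were negative. This depended on the count filter. With no filter 7 of 12 such rows were positive and 5 negative, with a median of 0.07, and DESeq2 gave the same counts with a median of 0.08. Clec11a, a secreted growth factor for bone and blood progenitors, had 40.1, 36.5, 42.6, 32.8 and 35.3 CPM in WT and 46, 62.7, 45.3 and 52.6 CPM in DKO. Each DKO library was above each WT library, which held for 1.74% of all rows tested. The log2 fold change was 0.46 ± 0.17 (SE), with an adjusted p of 0.230 by edgeR, so the row did not pass the test. Clec11a was the 1 member of 34 with such a separation, and 0 members had every DKO library below WT, against 1.61% of all rows. Clec4g (LSECtin, of liver sinusoids) followed with 16.0, 17.6, 14.6, 11.7 and 22.6 CPM in WT and 21.1, 22.3, 21.6 and 25.9 CPM in DKO at row 2, and with 33.0, 21.4, 31.4, 25.5 and 29.6 CPM against 37.7, 48.6, 32.1 and 32.0 CPM at row 1. WT replicate 5 lay among the DKO libraries at row 2, and the log2 fold changes were 0.46 ± 0.22 and 0.38 ± 0.19.

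**Figure D3:**
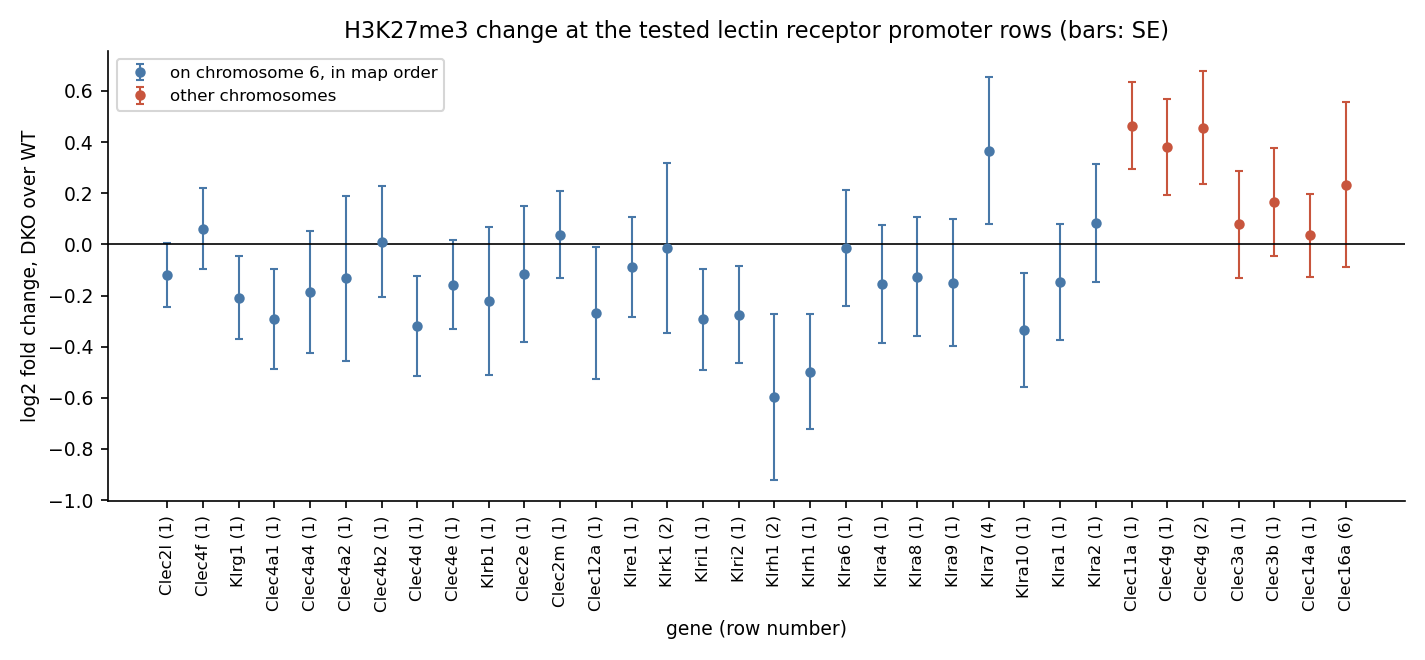
Log2 fold change of H3K27me3 (DKO over WT) at the 34 tested lectin receptor promoter rows, with SE as bars, in map order on chromosome 6 and then on other chromosomes. None passed the test; 22 of 27 chromosome 6 rows lie below 0 and 7 of 7 others lie above it.

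Summed over rows, the chromosome 6 members held fewer counts relative to the other members in DKO than in WT, but the difference did not pass the test. The ratio of summed counts was 3.45, 4.75, 3.64, 5.06 and 4.43 in WT replicates 1 to 5, and 3.55, 2.74, 3.44 and 3.41 in DKO replicates 1 to 4. The mean was 4.27 ± 0.698 (SD, n = 5) in WT and 3.29 ± 0.368 (SD, n = 4) in DKO, with 3 of 4 DKO libraries below all WT libraries and WT replicate 1 close to the DKO values. The log2 difference was -0.37, with p = 0.0556 by a two-sided exact permutation test over all groupings of the 9 libraries and an adjusted p of 0.0926 over the 5 sums tested. The smallest p that this test can give is 0.00794.

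The 2 parts of that ratio moved in opposite directions. The sum over chromosome 6 members was 812 ± 76.8 CPM (SD, n = 5) in WT and 742 ± 35.8 CPM (SD, n = 4) in DKO, a log2 difference of -0.13 (exact permutation p = 0.167, adjusted p = 0.208). The other members summed to 193 ± 19.6 CPM in WT (n = 5) and 228 ± 23.5 CPM in DKO (n = 4), a log2 difference of 0.24 (exact permutation p = 0.0397, adjusted p = 0.0926), and 3 of 4 DKO libraries were above all WT libraries. With library totals as the scale the adjusted p was 0.0397, and without the highest row it was 0.0293. Relative to all other promoters of chromosome 6, the chromosome 6 members differed by -0.04 on the log2 scale (exact permutation p = 0.333), from shares of 0.855 ± 0.0397% in WT (n = 5) and 0.833 ± 0.0209% in DKO (n = 4). In the libraries with neither Old nor New this difference was 0.02. The share of all promoter counts on chromosome 6 was itself lowest in WT replicate 1, at 8.11%, and 8.60 to 10.1% in the other libraries. The part of that share in these differences was not tested.

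**Figure D4:**
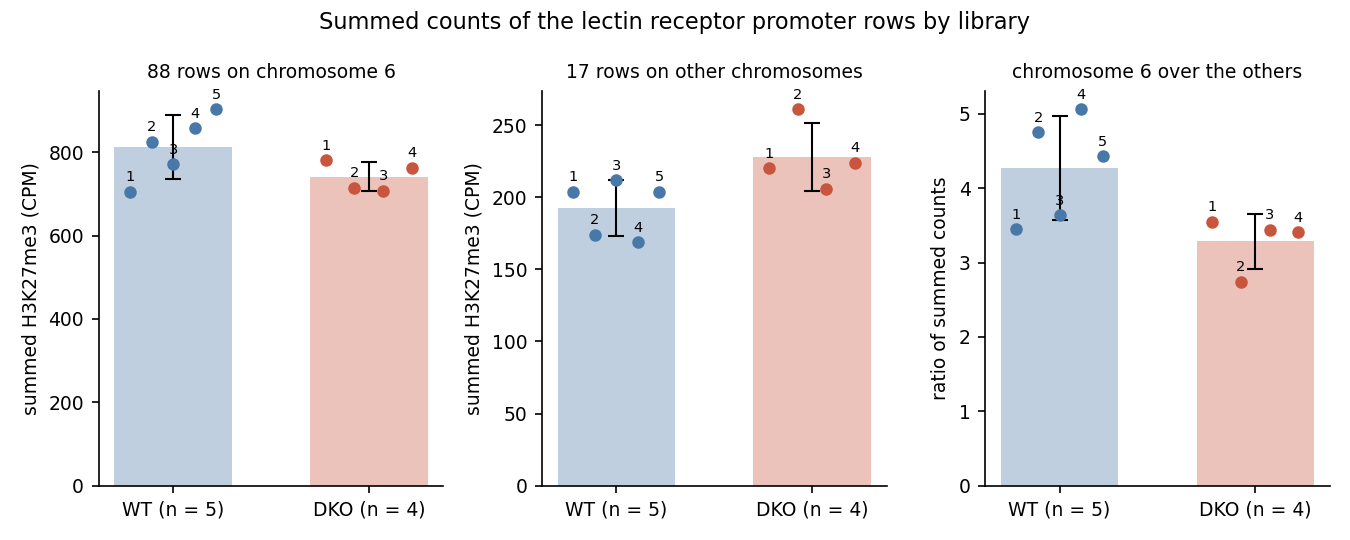
Summed H3K27me3 over the lectin receptor promoter rows on chromosome 6 (CPM), on other chromosomes (CPM), and the ratio of their counts, by library. Bars are means, whiskers are SD, and numbers are replicates; the ratio was 4.27 ± 0.698 in WT and 3.29 ± 0.368 in DKO, and WT replicates 1 and 3 lie near the DKO libraries.

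Per row, the chromosome 6 members were lower than the other members in 9 of 9 libraries, by 0.46 on the log2 scale (exact sign-flip permutation p = 0.00391, the smallest it can give, adjusted p = 0.0195). The test asks whether libraries agree over these fixed rows, so it cannot say whether the gene sets differ. The rows include the 30 with 0 counts in all libraries, none of them free of overlap. The difference was not seen in rows free of overlap, where it was -0.03 (p = 0.773 by the same exact test), with means per row of 26.9 ± 2.75 and 24.6 ± 2.58 CPM (SD, n = 5) in WT and 24.3 ± 1.19 and 28.5 ± 2.65 CPM (SD, n = 4) in DKO for chromosome 6 and other members.

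Of the 31 regions at members, 20 had enough counts for the test and 3 passed it: 2 fell and 1 rose in DKO. Over all 40418 regions tested, 4.01% were called, 2.14% upward and 1.87% downward, and the shares were 5.73% fallen among WT-specific and 5.38% risen among DKO-specific regions. All 3 are in the authors' genotype-specific lists, and no source used here names the libraries or rule behind those lists, so their direction is not taken as independent evidence. Of the 13 shared member regions, 11 of them on chromosome 6, 0 were called (0 with an unadjusted p under 0.05) by edgeR, against 3.31% of all shared regions. The median log2 fold change of the 13 was -0.13, against -0.15 over the shared regions of chromosome 6 and -0.05 over all shared regions. DESeq2 gave an adjusted p to 8 of the member regions and called 0.

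The WT-specific region upstream of Clec5a, a myeloid receptor that signals through DAP12, is 607 bp long at chr6:40587044-40587650 and outside any RefSeq gene span. Clec5a had 5.05, 6.16, 5.50, 7.41 and 3.86 CPM there in WT and 1.22, 3.96, 2.54 and 2.02 CPM in DKO. DKO replicate 2 was just above WT replicate 5 and the other DKO libraries were below all WT libraries. The log2 fold change was -1.19 ± 0.35 (SE), adjusted p = 0.0323 by edgeR. Total H3 had 4 and 10 counts in WT and 0 and 4 counts in DKO, too few to be tested, and its part in the result was not tested. A shared region of 920 bp lay next to it at the same promoter, with a log2 fold change of 0.10.

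The WT-specific region upstream of Klri2 is 650 bp long at chr6:129741711-129742360, also outside any RefSeq gene span. Klri2 had 4.20, 2.80, 6, 6.67 and 7.39 CPM there in WT and 3.66, 1.32, 2.22 and 2.70 CPM in DKO, and DKO replicate 1 lay within the WT range. The log2 fold change was -1.16 ± 0.35 (SE), adjusted p = 0.0340 by edgeR. Total H3 had 4 and 6 counts in WT and 1 and 4 counts in DKO. The whole Klri2 promoter row, with 26.7, 27.7, 30.3, 41.6 and 43.0 CPM in WT and 25.7, 28.3, 35.6 and 24.4 CPM in DKO, did not pass the test (-0.27 ± 0.19, adjusted p = 0.672 by edgeR).

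The DKO-specific region at Clec11a is 706 bp long at chr7:44306536-44307241, and it holds the whole upstream stretch of that promoter, shown because this was the 1 member region that rose.
Clec11a: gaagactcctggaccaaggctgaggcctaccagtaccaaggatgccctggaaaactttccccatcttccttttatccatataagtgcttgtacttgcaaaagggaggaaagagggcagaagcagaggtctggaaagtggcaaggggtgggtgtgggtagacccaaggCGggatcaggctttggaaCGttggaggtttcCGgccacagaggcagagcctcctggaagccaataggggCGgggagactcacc
This stretch is chr7:44306960-44307209 (minus strand) in GRCm38.p6, from RefSeq, with its 4 CpG in capitals. Clec11a had 5.89, 5.04, 6.50, 5.56 and 4.18 CPM in the region in WT and 6.10, 12.7, 8.24 and 11.1 CPM in DKO, and DKO replicate 1, of clone 4, lay within the WT range. The log2 fold change was 0.82 ± 0.25 (SE), adjusted p = 0.0406 by edgeR. Total H3 was 7 and 14 counts in WT and 7 and 8 in DKO. The 5798 bp shared region beside it, which also covers the start of Shank1, had 107, 76.7, 89.0, 71.9 and 91.6 CPM in WT and 103, 104, 92.3 and 87.4 CPM in DKO, with overlap and a log2 fold change of 0.14 ± 0.10 (adjusted p = 0.431 by edgeR).

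None of these 3 calls held without each library in turn. The Clec5a region lost its call without DKO replicate 1, 3 or 4 or WT replicate 2 (adjusted p by edgeR 0.111, 0.0932, 0.0903 and 0.0617), and without WT replicate 4 it had too few counts to be tested. The Klri2 region lost it without DKO replicate 2, 3 or 4 (0.143, 0.122 and 0.0600) and was not testable without WT replicate 1, 3, 4 or 5. The Clec11a region lost it without DKO replicate 2, 3 or 4 or WT replicate 2, 4 or 5 (0.188, 0.0647, 0.123, 0.0771, 0.0686 and 0.139). The Clec11a region also lost its call with library scaling factors (TMM) taken without chromosomes 6 and 11 (adjusted p by edgeR 0.0702) and with no filter (0.056). Counts in these regions were low, from 3 to 33 per library.

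**Figure D5:**
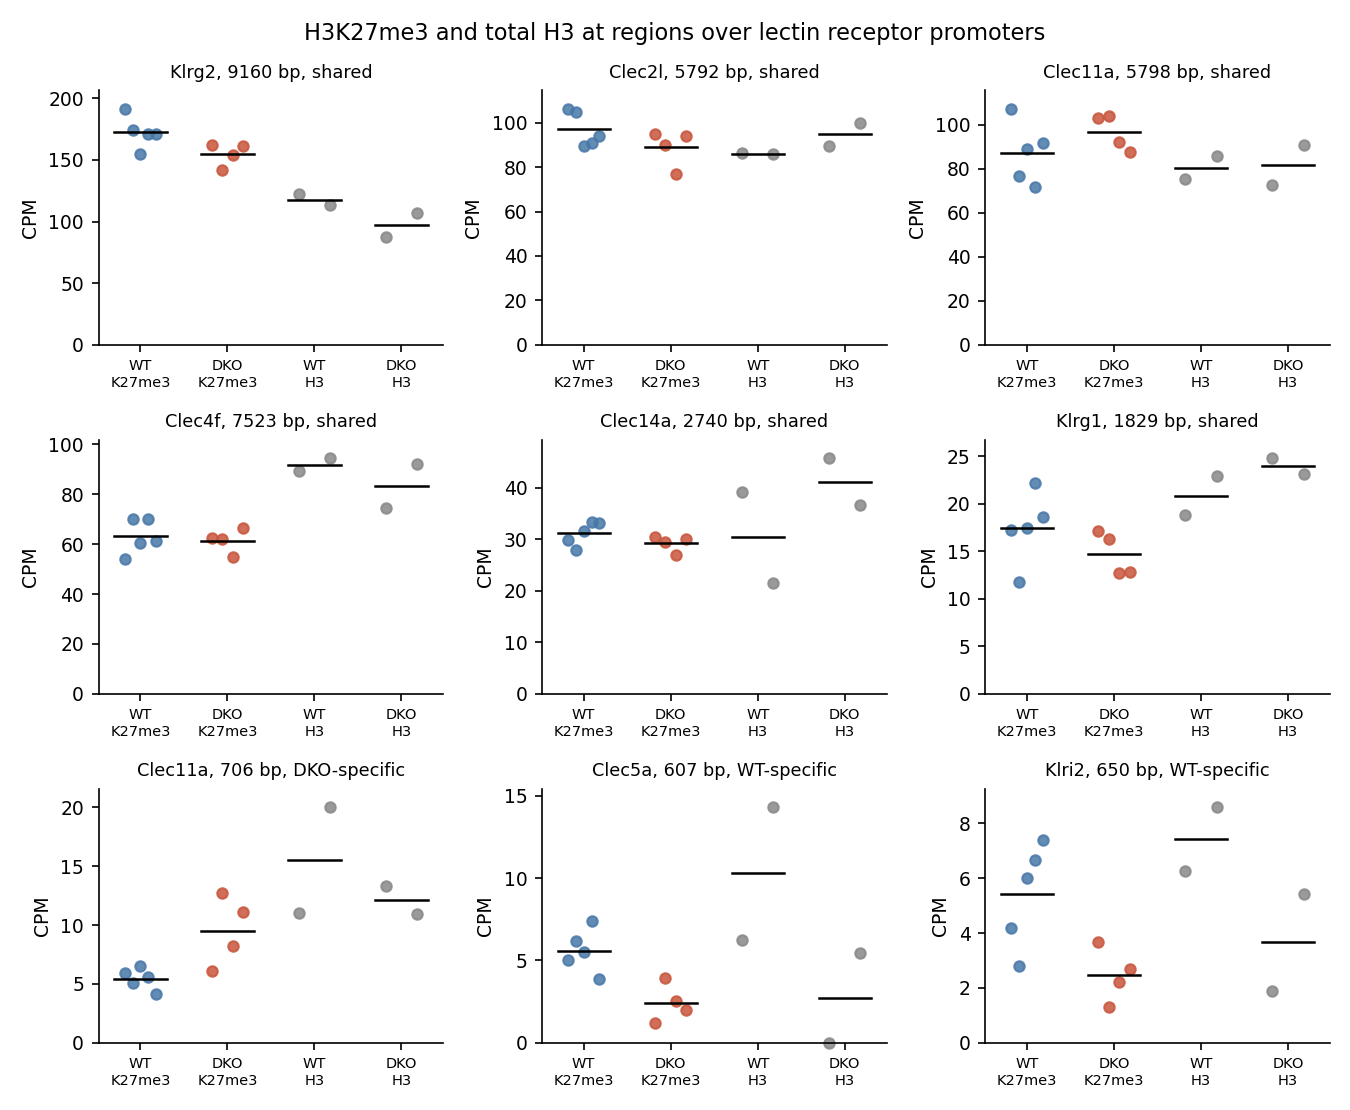
H3K27me3 and total H3 (CPM, linear axes from 0) at 9 regions over lectin receptor promoters, by library, with group means as lines. The libraries of the genotypes overlap at all 9 regions. The 3 short genotype-specific regions, at 1.22 to 12.7 CPM, are those that passed the test.

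In total H3, 8 member regions were tested and 0 were called (0 with an unadjusted p under 0.05) by edgeR, where 0.0211% of all 18938 regions tested were called. DESeq2 called 0 of all regions in H3. The shared regions at the members had 31.3 kb on chromosome 6, with summed H3 of 384 and 392 CPM in WT and 364 and 403 CPM in DKO. Summed H3K27me3 over the same regions was 406 ± 19.1 CPM (SD, n = 5) in WT and 371 ± 23.1 CPM (SD, n = 4) in DKO.

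The partners of these receptors were read from the same test, by lists chosen by function or, for neighbours, by position. In none of these lists did a row pass edgeR's test, and 0 adaptor, 0 ligand, 1 cytotoxic and 2 neighbouring rows had an unadjusted p under 0.05, as did 10.2% of all rows tested, while DESeq2 called 0 of the 7 rows to which it gave an adjusted p. Of 19 adaptor and signalling genes, 9 rows of 9 genes were tested and 0 rose or fell, with 5 of the 9 changes negative. The highest was Plcg2, a phospholipase downstream of Syk, with 122 ± 25.1 CPM (SD, n = 5) in WT and 122 ± 11.6 CPM (SD, n = 4) in DKO, while Zap70, a kinase, and Tyrobp, the DAP12 adaptor of activating Ly49 receptors, had 25.1 and 25.0 CPM. Of 16 ligand genes, 12 had rows and 5 rows of 4 genes were tested and 0 rose or fell, led by Cdh2, a cadherin bound by Klrg1, at 109 CPM, then H60b, an NKG2D ligand, at 21.3 CPM and H2-T23, which encodes Qa-1, at 19.2 CPM. Of 16 symbols of cytotoxic lymphocyte genes, all but Cd244, listed beside Cd244a, had rows. Of these 15 genes, 14 rows of 11 genes were tested and 0 rose or fell. Their highest rows were those of the transcription factors Tbx21, Nfil3 and Zeb2, at 135, 125 and 77.1 CPM, each above every lectin receptor row other than Clec2l. Of 12 other genes in and near the complex, 5 rows of 4 genes were tested and 0 rose or fell. Etv6, a transcription factor, had 61.4 ± 9.81 CPM (SD, n = 5) in WT and 78.1 ± 7.62 CPM (SD, n = 4) in DKO (adjusted p = 0.352 by edgeR). Both Styk1 rows, of a kinase-like gene, had 25.0 and 22.3 CPM. The 12 genes include the NKR-P1 receptors Klrb1a, Klrb1b, Klrb1c and Klrb1f, of which Klrb1c alone was tested, at 11.7 CPM.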

How the data were processed

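Raw read counts were deposited by the authors, with no normalization. Per the file headers, promoter counts came from featureCounts 2.0.3, without strand and without assigning a read to several rows. The submitters' processing notes name Bowtie2, MACS2, bedtools and Subread, with no role for each, and build mm10. The tags b6 and q30 in the headers are not explained in the sources used here. How regions were called is not given there either.

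The 37 rows of chromosome M and the Gm21748 row were left out. Tests across rows used edgeR 4.0.16 under R 4.3.3 (filterByExpr with a minimum count of 10 and a minimum total of 15, TMM, quasi-likelihood F test, two-sided, Benjamini-Hochberg over all rows). The test was checked on simulated counts. CPM uses TMM-scaled library sizes. Sums of counts were compared by exact permutation over libraries. Sums, shares and plots came from Python 3.11.15 (scipy 1.17.1, numpy 2.4.6, matplotlib 3.10.9, pandas 2.3.3).

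Members and lists were chosen with earlier results of these data known. Named were all members that passed the test, the 3 highest rows of each chromosome 6 cluster, the 5 highest elsewhere, the 3 largest changes each way, the 6 highest regions and the 3 highest rows of each list. Families are described by their lowest and highest free rows, chosen after their values were seen. The alternatives were DESeq2 1.42.0, other scalings and filters, library subsets, a replicate block and leaving out each library. No 2 libraries agreed within sampling noise (chi-square per degree of freedom of at least 1.06).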

Additional observations from a re-analysis of the deposited data

Results flagged for a closer look

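Of 62 groups of 4 or 5 libraries examined for a library far from the rest, 3 had one, all of them DKO replicate 2, and chance alone flags about 1 in 20 groups. At the Clec4e promoter, DKO replicate 2 had 28.3 CPM, where the nearest DKO library had 42.3 CPM. In the log2 ratio of summed counts on chromosome 6 to those of the other members, DKO replicate 2 had 1.45, and the next DKO library had 1.77. The ratio per row is the same quantity on another scale, and DKO replicate 2 stood there at -0.92.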

How the results depend on the processing

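Under every alternative run, 0 member promoters and 0 rows of the partner lists were called. The number of member regions called, 3, was 1 with WT replicates of the shared stem only and 1 with a replicate block, and 0 with DESeq2, with the stricter filter, within the libraries with neither Old nor New, within the Old and New libraries, and with shared regions only (added after seeing the data). It was 2 with TMM without chromosomes 6 and 11 and with no filter, where the Clec11a region lost its call (adjusted p by edgeR 0.0702 and 0.056). Leaving out 1 library gave 0 to 2 called regions. The difference per row, -0.46, became -0.028 with free rows only, -0.36 within the Old and New libraries, -0.54 within the libraries with neither, and -0.50 with WT of the shared stem, and was no longer past the threshold. The library subsets hold fewer libraries, so their exact tests reach less far, while the setting with free rows only uses all libraries. Otherwise the cause was not tested. Leaving out 1 library gave -0.51 to -0.40 for it. The sum of other members, 0.24, passed with library totals (0.27) and without the highest rows (0.30), and ran from 0.17 to 0.29 without 1 library. The chromosome 6 members against other chromosome 6 promoters reversed to 0.019 within the libraries with neither Old nor New. Log2 fold changes of single items, none of them called, reversed in the same libraries at the promoters of Klrg1 (0.0065) and Klra10 (0.068) and the regions of Clec14a (0.0038), Clec4f (0.017) and Klrg1 (0.086). The Clec14a promoter reversed within the Old and New libraries (-0.032), and it ran from -0.064 to 0.12 without 1 library, as did Clec3a from -0.072 to 0.18. The Clec4f region reversed with library totals (0.018) and ran from -0.093 to 0.018 without 1 library. Same-numbered libraries did not deviate together (correlations of 0.01, -0.02, 0.02 and 0.04), so the replicate numbers were not taken as pairs. The Old libraries (WT replicate 4, DKO replicate 3) had 0.069 and the New ones (WT replicate 5, DKO replicate 4) had 0.094. All pairs ran from -0.111 to 0.103. With a replicate block the ratio of chromosome 6 to other members was -0.35 (exact p = 0.25). The block goes by number, so it sets WT replicate 4 (Old) with DKO replicate 4 (New). Low counts and overlap between rows limit these results: 34 of 105 member rows had enough counts to be tested, and counts of single Ly49 rows stayed at 39 or less.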
